A study of Mus musculus with 65 samples.

Results

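Chromatin accessibility 2 h after replication was compared between newly replicated DNA and the unbound rest of the chromatin under triptolide, in 6 of the 65 samples of the series. The 6 are 3 EdU libraries and 3 unbound libraries, chosen by their column names in the window table of the inhibitor experiment. The cells were E14TG2a mouse embryonic stem cells (129/Ola strain, passages 5-28), grown on gelatin in serum with leukaemia inhibitory factor (LIF). They were kept in triptolide for 2 h, given the thymidine analogue EdU at 20 uM for 10 min, and chased in 10 uM thymidine for 2 h. The EdU group is the tagmented DNA that streptavidin beads captured after biotin was clicked onto EdU, and the unbound group is what remained in the supernatant of that capture. The unbound group therefore holds mostly DNA that was not replicated during the pulse, together with any labelled DNA that escaped capture. Any cells that were not replicating DNA during the pulse contribute to the unbound group alone. Groups used beside these have the same EdU and unbound fractions after DRB or DMSO in place of triptolide at 2 h, or after triptolide with no chase (nascent), with 3 libraries each. The sources used here give neither the dose of either drug nor whether it was present throughout the chase. Nor do they say which libraries came from separate cultures, so every p-value measures the spread between these libraries, which may be technical.

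Triptolide binds the XPB helicase of TFIIH, the factor that opens promoter DNA so that RNA polymerase II can start transcription. DRB blocks CDK9, the kinase of P-TEFb that releases paused RNA polymerase II into elongation, so both drugs stop messenger RNA synthesis at different steps. A replication fork strips and re-deposits nucleosomes, and promoters and enhancers behind it are covered by nucleosomes until remodellers, transcription factors and the transcription machinery open them again. ATAC-seq reads this opening through insertions of the Tn5 transposase into accessible DNA.

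Transcription start sites (TSSs) of protein-coding genes differed between EdU and unbound chromatin in both directions, and far more were lower in EdU. Of 18371 coding genes tested, 47.7% were called lower in EdU and 0.98% higher (limma adjusted p under 0.05). The RefSeq promoters of 3 of the 12 coding genes furthest below unbound chromatin (Pank2, Pla2g6 and Dnpep) and 3 of the 12 furthest above it (Shbg, Ssc4d and Avil) are shown to let their base composition be read beside the values. Each runs 5′ to 3′ over 300 bases, 250 before and 50 after the annotated start, on GRCm38.p6 (mm10). Capitals mark any match, on either strand, to GGGCGG (the core of a GC box), CCAAT (bound by NF-Y), TATAAA (the TATA box), TGCGCA (found in NRF1 sites), CGGAAG (the core of ETS-family sites), ATGGCG (found in YY1 sites) or TGACGT (found in CREB sites), and adjacent matches run together. Pank2 is at chr2:131262250-131262549 on the + strand, Pla2g6 at chr15:79328322-79328621 on the - strand and Dnpep at chr1:75317588-75317887 on the - strand. Shbg is at chr11:69617856-69618155 on the - strand, Ssc4d at chr5:135974427-135974726 on the - strand and Avil at chr10:127000459-127000758 on the + strand.
Pank2: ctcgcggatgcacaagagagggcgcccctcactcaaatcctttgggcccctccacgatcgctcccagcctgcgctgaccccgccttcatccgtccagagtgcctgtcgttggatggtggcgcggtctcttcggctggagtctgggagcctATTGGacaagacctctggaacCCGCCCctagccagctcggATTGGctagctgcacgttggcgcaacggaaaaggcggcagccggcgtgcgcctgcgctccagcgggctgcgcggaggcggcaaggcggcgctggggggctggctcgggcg
Pla2g6: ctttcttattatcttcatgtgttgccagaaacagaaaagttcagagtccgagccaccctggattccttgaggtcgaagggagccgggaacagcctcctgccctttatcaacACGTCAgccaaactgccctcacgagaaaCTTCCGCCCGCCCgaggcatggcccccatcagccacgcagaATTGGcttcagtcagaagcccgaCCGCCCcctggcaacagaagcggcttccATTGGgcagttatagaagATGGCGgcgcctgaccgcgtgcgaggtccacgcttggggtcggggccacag
Dnpep: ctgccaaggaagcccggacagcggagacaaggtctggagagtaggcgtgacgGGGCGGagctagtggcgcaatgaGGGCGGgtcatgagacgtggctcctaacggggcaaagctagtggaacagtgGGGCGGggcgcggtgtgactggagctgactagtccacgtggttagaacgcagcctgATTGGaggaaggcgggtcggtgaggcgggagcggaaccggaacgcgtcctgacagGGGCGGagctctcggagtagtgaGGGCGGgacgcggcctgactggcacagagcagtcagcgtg
Shbg: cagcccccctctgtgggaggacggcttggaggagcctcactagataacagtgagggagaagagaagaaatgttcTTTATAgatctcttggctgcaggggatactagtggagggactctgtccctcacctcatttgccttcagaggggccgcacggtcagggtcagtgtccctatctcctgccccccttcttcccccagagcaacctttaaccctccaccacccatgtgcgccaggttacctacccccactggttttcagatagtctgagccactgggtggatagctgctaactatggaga
Ssc4d: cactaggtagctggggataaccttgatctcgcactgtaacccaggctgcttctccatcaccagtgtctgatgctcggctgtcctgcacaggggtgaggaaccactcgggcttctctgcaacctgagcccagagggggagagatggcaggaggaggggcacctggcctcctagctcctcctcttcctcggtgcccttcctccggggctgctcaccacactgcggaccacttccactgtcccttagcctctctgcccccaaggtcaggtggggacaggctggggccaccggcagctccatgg
Avil: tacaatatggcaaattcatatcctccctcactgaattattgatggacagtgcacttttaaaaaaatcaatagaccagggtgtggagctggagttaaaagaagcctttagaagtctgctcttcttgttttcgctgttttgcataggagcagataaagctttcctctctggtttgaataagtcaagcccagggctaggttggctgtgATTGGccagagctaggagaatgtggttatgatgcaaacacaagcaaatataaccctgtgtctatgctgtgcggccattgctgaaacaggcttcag
The promoters of Pank2, Pla2g6 and Dnpep had a GC content of 68.7%, 59.0% and 65.7% and held 3, 8 and 6 matches, and their CpG observed over expected ratios were 0.85, 0.73 and 0.94. Those of Shbg, Ssc4d and Avil had a GC content of 55.7%, 63.3% and 43.0% and held 1, 0 and 1 matches, and their CpG ratios were 0.17, 0.23 and 0.15. When scaled to background reads within 250 kb, as described below, Ssc4d and Avil were no longer called higher.

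The EdU libraries held 3.47 M, 3.22 M and 3.76 M reads and the unbound libraries 8.69 M, 3.97 M and 13.0 M, so the EdU values carry the larger counting error. Between replicates, Pearson's r over the 30104 TSSs tested was 0.85 to 0.86 among EdU libraries and 0.95 to 0.97 among unbound libraries, across sites that are not independent. The deposited unit is log2(RPM + 1), where RPM is reads scaled to the library's total, in 1 kb windows, and each site takes the value of the window nearest its centre. Sites were 31967 TSSs, 8794 enhancers and 136300 distal peaks, which are steady-state peaks over 1000 bp from every TSS and off the central 1 kb of every enhancer. A site is called when limma's adjusted p is under 0.05, and a difference between fractions is EdU minus unbound on the log2(RPM + 1) scale, which understates the change of sites with low values. Read levels are shares of a library, so a fraction with less signal at TSSs has more elsewhere.

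At 2 h after replication under triptolide, the TSS signal over background was lower in replicated than in unbound chromatin in every library. Mean RPM at TSSs was 6.37, 7.03 and 6.73 times that of background windows in the EdU libraries, against 13.9, 12.4 and 13.3 times in the unbound libraries. Every EdU library lay below every unbound library, with means of 6.71 ± 0.331 and 13.2 ± 0.757 (SD, n = 3 each) and an EdU level of 50.9% of unbound. At enhancers the EdU libraries stood at 9.34, 9.28 and 7.90 times background, against 14.4, 13.4 and 13.1 times in unbound libraries, which puts EdU at 64.8% of unbound. At distal peaks the EdU libraries stood at 7.59, 8.21 and 7.34 times background and the unbound libraries at 9.88, 9.53 and 9.50, so EdU was at 80.0% of unbound. The groups did not overlap in any of the 3 classes, and each two-sided exact permutation test of 3 against 3 gave p = 0.1, the smallest that this design allows. The 3 classes share libraries, and the difference between them was not tested.

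With DRB, EdU TSSs averaged 12.4 ± 1.54 times background and unbound TSSs 18 ± 2.42 (SD, n = 3 each, exact permutation p = 0.1), or 69.0% of unbound. With DMSO they averaged 17.3 ± 1.73 and 19.8 ± 1.95 (exact permutation p = 0.3), or 87.6%, and these libraries overlapped. Enhancers stood at 81.5% of unbound with DRB and 88.2% with DMSO, and distal peaks at 83.9% and 88.0%. The unbound fraction also differed between drugs: its TSS signal was 13.2 times background with triptolide and 19.8 with DMSO, so with triptolide the unbound libraries that serve as bulk had the lower TSS signal. Directly after the pulse, with no chase, triptolide EdU TSSs had stood at 2.71 ± 0.135 times background and unbound TSSs at 19.9 ± 1.34, or 13.6% of unbound, with enhancers at 13.0% and distal peaks at 23.1%.

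**Figure D1:**
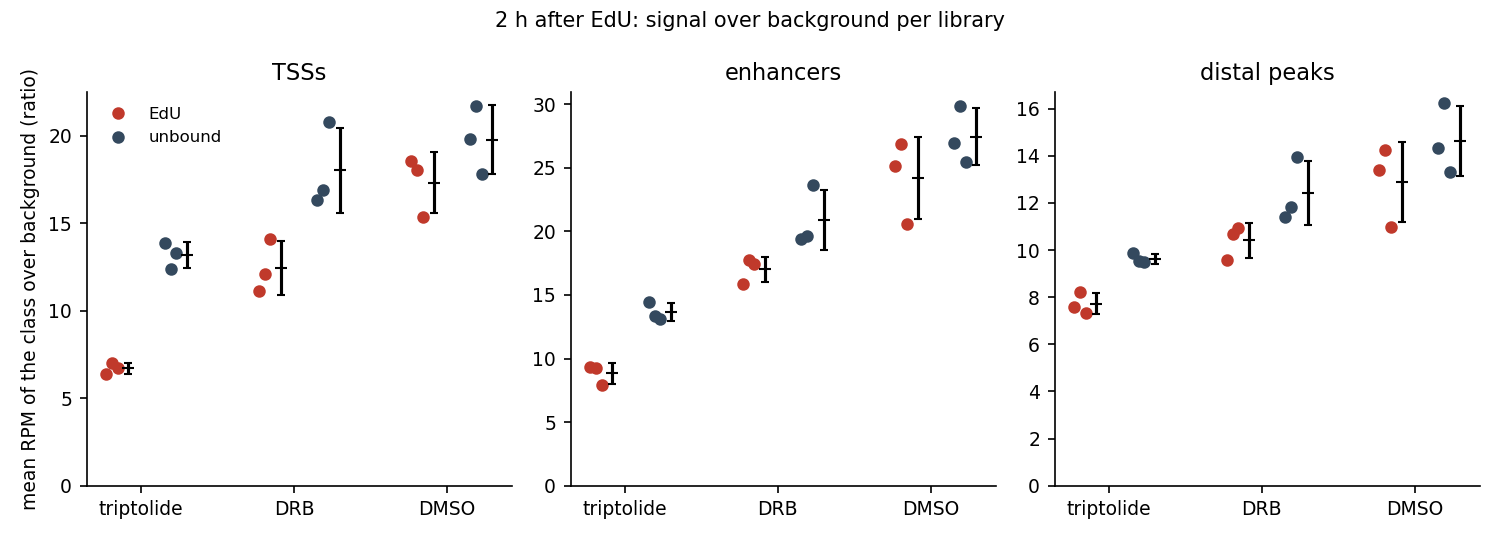
Mean RPM of each class of site over mean RPM of background windows (ratio, y axis), per library taken 2 h after EdU, for triptolide, DRB and DMSO. Points are libraries, with EdU in red left of unbound in blue, and the bars beside them are the mean and SD of 3. The triptolide EdU libraries sit between 6.37 and 7.03 at TSSs, all below the unbound libraries at 12.4 to 13.9, while the DMSO fractions overlap.

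Reads outside the peaks of all deposited ATAC-seq lists, from nascent to steady-state chromatin, made up 58.5%, 56.9% and 59.1% of the EdU libraries. In the unbound libraries they made up 50.6%, 51.8% and 51.4%. All EdU libraries were above all unbound libraries, by 6.95 percentage points on average (exact permutation p = 0.1, two-sided, 3 against 3), and by 3.63 points when a margin of 1000 bp around peaks was left out too. With DMSO the shares were 44.1% and 41.4% (exact permutation p = 0.4), and with DRB 49.2% and 44.8%. Chromosome X took 2.01 ± 0.097% of EdU reads and 2.13 ± 0.0485% of unbound reads (SD, n = 3 each, exact permutation p = 0.2), which overlapped.

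The fractions differed in a narrow interval around the site. At the centre of TSSs that carry a peak of RNA polymerase II with phosphate on serine 5 of its tail (S5P, the form found at initiating and paused polymerase), EdU signal was 12.7 ± 0.581 times background and unbound signal 27.7 ± 2.01 (SD, n = 3 each), so EdU was at 45.9% of unbound. At 1 kb upstream and downstream the same share was 68.9% and 63.3%, and at 5 kb it was 111.9% and 110.9%, above unbound. At TSSs without an S5P peak, EdU was at 53.7% of unbound in the centre (5.47 and 10.2 times background), 81.3% and 72.2% at 1 kb, and 97.7% and 99.4% at 5 kb. At enhancers EdU was at 64.8% of unbound in the centre, 84.2% and 83.2% at 1 kb on either side, and 103.6% and 103.2% at 5 kb.

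**Figure D2:**
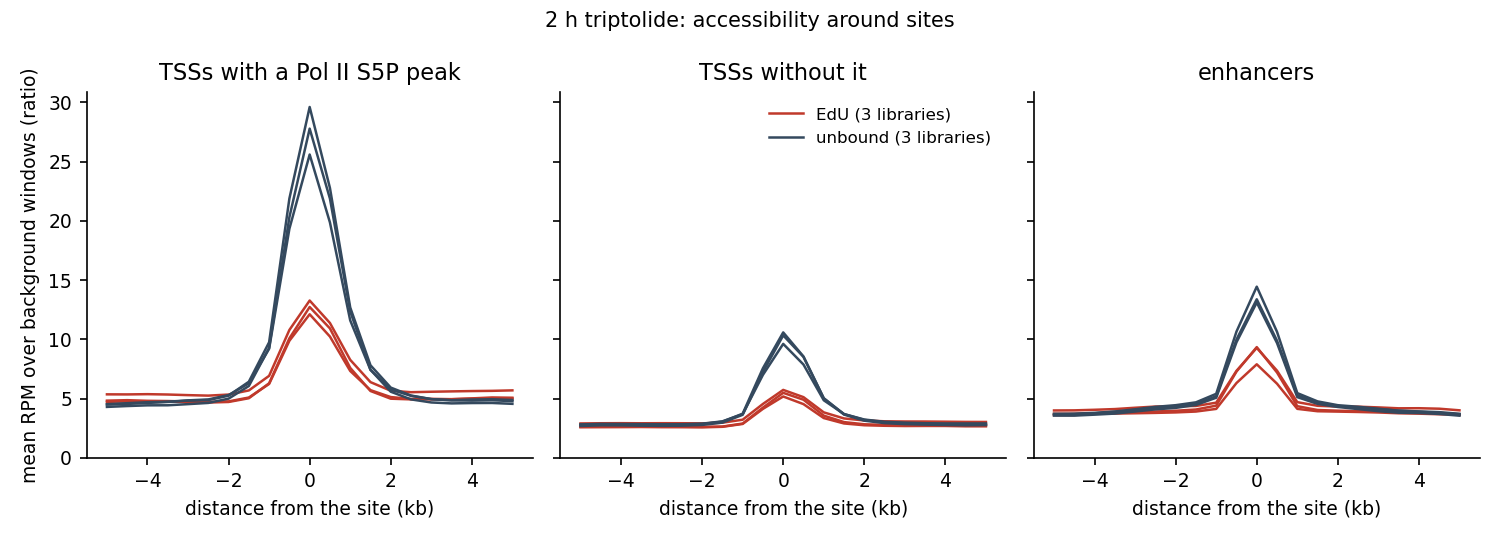
Mean RPM over background windows (ratio, y axis) against distance from the site in kb (x axis), at TSSs with an S5P peak, TSSs without one, and enhancers. Each line is 1 library of 2 h triptolide, EdU in red and unbound in blue. In the left panel the EdU lines peak near 12.7 and the unbound lines near 27.7, and the fractions meet near 2500 bp from the TSS.

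Site by site, 10332 of the 30104 TSSs tested were called lower in EdU than in unbound chromatin (34.3%) and 624 were called higher (2.07%), with a median difference of -0.28. Of 8779 enhancers tested, 2218 were called lower (25.3%) and 244 higher (2.78%), with a median of -0.30. Of 136300 distal peaks, 16717 were called lower (12.3%) and 5186 higher (3.8%), with a median of -0.17. At 11743 TSSs all 3 EdU libraries lay below all 3 unbound libraries (39.0%), and at 1347 all lay above (4.47%). Across the TSSs called lower, EdU averaged 2.52 ± 0.0439 RPM and unbound 6.26 ± 0.342 RPM (SD, n = 3 each), or 40.2% of unbound.

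These directions hold on RPM scaling and on scaling to background windows, and not under centring. Centring each library on its median TSS moves the median TSS difference from -0.28 to 0.11, and 5533 TSSs were then called lower and 5418 higher, so that 50.5% of called TSSs were lower against 94.3% on RPM. Under that centring 45% of called enhancers (782 lower, 957 higher) and 17.5% of called distal peaks (4471 lower, 21051 higher) were lower, against 90.1% and 76.3% on RPM. Scaling to background windows gave 96.7%, 94.5% and 87.1% lower at TSSs, enhancers and distal peaks.

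In the DMSO comparison limma called 1 TSS lower, Fa2h (fatty acid 2-hydroxylase), named after its values were seen, with 1901 lower and 570 higher at an unadjusted p under 0.05, and limma-voom on the recovered reads called 12 lower and 13 higher. That 1 TSS is 0.00332% of those tested, and with DMSO 13 enhancers were called lower (0.148%) and 3 higher (0.0342%), and 49 distal peaks lower (0.036%) and 23 higher (0.0169%). The DRB comparison called 3303 TSSs lower (11%) and 167 higher (0.555%), 538 enhancers lower (6.13%) and 120 higher (1.37%), and 3170 distal peaks lower (2.33%) and 976 higher (0.716%). By limma-voom the DRB calls were 1971 lower and 376 higher at TSSs and 261 and 121 at enhancers, and at distal peaks the split turned, with 824 lower and 1021 higher. It turned at DMSO distal peaks too, with 92 lower and 196 higher, and DMSO enhancers were called lower in 32 and higher in 31 cases. With triptolide limma-voom called 9630 TSSs lower and 953 higher, 1861 enhancers lower and 300 higher, and 13072 distal peaks lower and 7719 higher. Of the called distal peaks 62.9% were then lower with triptolide, against 76.3% by limma.

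The more accessible a site was in bulk DMSO chromatin, the more often its replicated copy was called lower under triptolide. Of TSSs under 0.5 RPM in DMSO unbound libraries, 1.35% were called lower, with a median difference of -0.02. The share was 11.7% at 1 to 2 RPM, 41.4% at 2 to 4, 67.3% at 4 to 8 and 83.7% at 8 to 16, with medians of -0.22, -0.58, -0.81 and -0.97. Of the 813 TSSs over 16 RPM, 740 were called lower (91.0%), and EdU averaged 5.79 ± 0.121 RPM and unbound 13.7 ± 0.493 RPM (SD, n = 3 each). At these 813 TSSs the median difference was -1.22 with triptolide, -0.47 with DRB and -0.05 with DMSO. The DMSO unbound libraries that set these bins also enter the DMSO difference, and sites with few reads give the test less power, whose part in the gradient of the share called was not tested. The pseudocount of 1 also makes medians at low RPM smaller in size. Over all TSSs the triptolide median was -0.53 at a pseudocount of 0.25 and -0.11 at 4. Among enhancers, 0.50% were called lower under 0.5 RPM and 68.9% over 16 RPM (median -0.78), and distal peaks over 16 RPM were called lower in 61.0% (median -0.66).

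**Figure D3:**
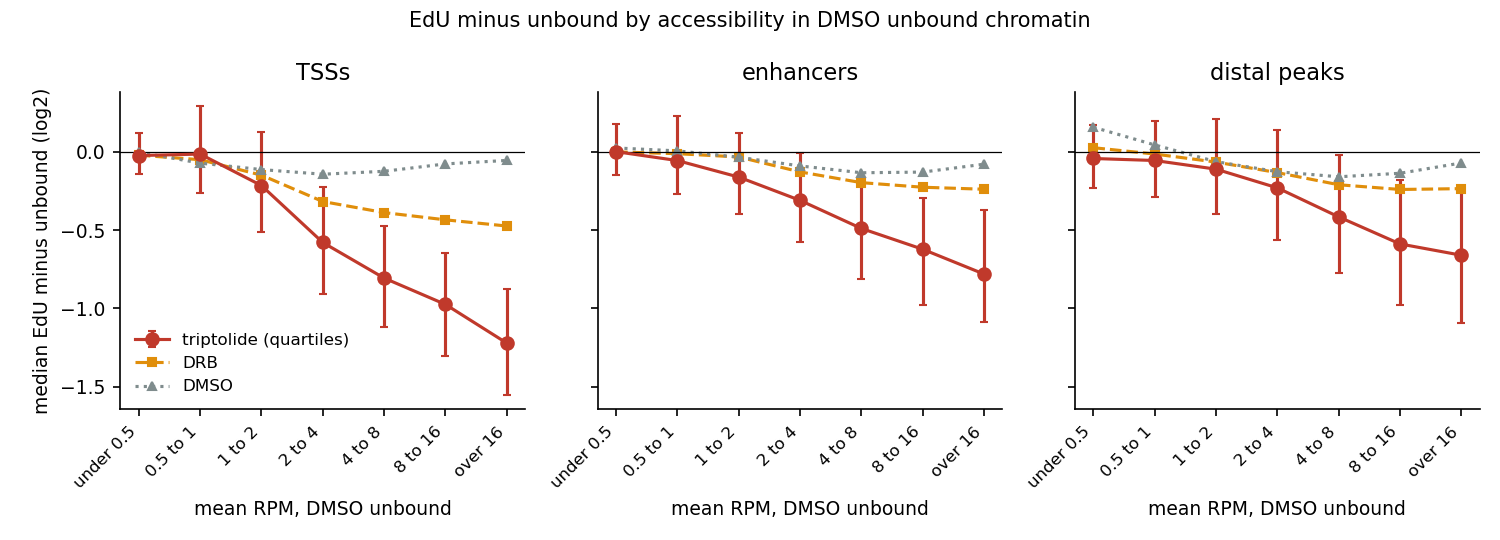
Median EdU minus unbound difference (log2(RPM + 1), y axis) in bins of mean RPM in DMSO unbound libraries (x axis), at TSSs, enhancers and distal peaks 2 h after EdU. Red circles are triptolide with the quartiles over sites as bars, orange squares DRB and grey triangles DMSO. The triptolide medians at TSSs run down to -1.22 in the top bin, while DMSO medians stay between -0.14 and 0.00.

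TSSs were also split by the deposited S5P peak list, which comes from other libraries. Of 5488 TSSs with an S5P peak, 3779 were called lower (68.9%, median -0.83), and of 24616 without one, 6553 were (26.6%, median -0.18). TSSs with S5P were also the more open ones, at 27.7 times background in unbound libraries against 10.2 times without S5P. As a share of unbound signal, EdU stood at 45.9% with S5P and 53.7% without it. The part of accessibility in this split was not tested. S5P TSSs averaged 3.05 ± 0.0782 RPM in EdU libraries and 6.10 ± 0.393 RPM in unbound libraries, with DMSO levels of 7.86 ± 0.427 and 8.02 ± 0.391 RPM (SD, n = 3 each). Among TSSs open at once after the fork in untreated cells, those of the nascent peak list, 70.8% of 4572 with S5P and 65.0% of 6179 without it were called lower. Within the lists first reached later the shares with and without S5P were 64.7% and 53.6% at 30 min, 61.0% and 39.6% at 1 h, 55.4% and 32% at 2 h, and 34.0% and 17.1% in steady state. Enhancers with an S5P peak were called lower in 69 of 168 cases (41.1%) and those without in 25%, and distal peaks in 31.9% and 12%.

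Peak lists of untreated cells give the first time after the fork at which a site was listed. TSSs first listed in nascent chromatin were called lower in 67.5% of cases, those first listed at 30 min in 55.6%, at 1 h in 42.2%, at 2 h in 35.0%, and in steady-state chromatin in 17.7%. Of 12532 TSSs in none of these lists, 1.88% were called lower and 3.45% higher. Their mean level was 0.415 RPM in EdU and 0.367 RPM in unbound libraries. These lists are ordered by accessibility too: unbound TSSs averaged 6.26 RPM in the nascent class and 1.56 RPM in the steady-state class.

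By gene type, 8859 of 18586 protein-coding TSSs were called lower (47.7%), against 29.4% of lncRNA, 9.08% of miRNA, 4.62% of snoRNA, 3.73% of pseudogene and 3.18% of snRNA TSSs. Coding TSSs with another coding gene's start on the opposite strand within 1000 bp were called lower in 1214 of 1673 cases (72.6%, median -0.86). Such starts could lie on either side of the TSS. The other coding TSSs were called lower in 45.2% (median -0.52). Unbound levels of these groups were 6.50 ± 0.423 and 3.89 ± 0.215 RPM (SD, n = 3 each), so TSSs with such a neighbour were also the more open ones.

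Promoters called lower were GC-rich and CpG-rich. RefSeq promoters matched 14918 coding TSSs, of which 7144 were called lower, 148 higher and 7626 neither. Median GC content was 62.7% in those called lower, 52.2% in those called higher and 51.7% in the rest, and the median CpG ratio was 0.787, 0.198 and 0.313. GGGCGG, letters bound by SP-family factors, was present in 71.0% of promoters called lower, 22.3% of those called higher and 31.8% of the rest, against 50.5% of all coding promoters matched and 35.6% of all 32817 RefSeq promoters. TATAAA went the other way, at 5.80%, 17.6% and 19.3%, against 12.8% of coding and 13.6% of all RefSeq promoters. CGGAAG was in 32.1%, 12.2% and 14.9% (23.1% of coding, 16.9% of all), ATGGCG in 15.6%, 4.05% and 8.64% (11.9% of coding, 8.92% of all), and TGCGCA in 14.9%, 4.05% and 7.27% (10.9% of coding, 7.75% of all). CCAAT was in 41.6%, 29.7% and 36.2% (38.7% of coding, 37.4% of all), and TGACGT in 12%, 6.08% and 6.96% (9.35% of coding, 7.51% of all). Letters of these motifs overlap in GC-rich sequence, for example CGGAAG and GGGCGG in the promoter of Pla2g6. Accessibility moved with these letters, and among promoters at 4 to 16 RPM in DMSO unbound libraries, GGGCGG was in 72.8% of the 5315 called lower and 65.0% of the 1720 not called, TATAAA in 5.36% and 8.26%, and the CpG ratio was 0.795 and 0.757. In the same 2 groups CGGAAG was in 34.4% and 31.0% and CCAAT in 42.0% and 35.1%, and the shares of TGCGCA (15.7% and 15%), TGACGT (12.8% and 12%) and ATGGCG (16.7% and 16.9%) were within 1 percentage point.

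Of 25490 genes paired with a TSS, 24186 were tested, and 9460 were called lower (39.1%) and 371 higher (1.53%). The 12 coding genes with the most negative differences lay between -2.44 and -2.22. At Pank2 (pantothenate kinase, the first step of coenzyme A synthesis; window chr2:131262001-131263000) EdU libraries had 1.73, 1.86 and 1.86 RPM, against 15.9, 12.9 and 14.3 RPM in unbound libraries. The EdU values were close together and far below all unbound values, and the difference was -2.44 (SE 0.179, limma adjusted p = 7.06e-12). With DRB the same window averaged 9.53 RPM in EdU and 17.8 RPM in unbound libraries, and with DMSO 16.3 and 19.9 RPM. Mtmr4, a phosphatase of phosphoinositides on endosomes, had 3.46, 4.66 and 3.46 RPM in EdU libraries, against 23.3, 27.5 and 20.8 RPM in unbound libraries. The groups did not overlap, and the difference was -2.36 (SE 0.165, adjusted p = 3.74e-12). Dnpep, an aspartyl aminopeptidase, had 3.17, 2.79 and 4.25 RPM in EdU libraries, against 25.2, 21.9 and 16.7 RPM in unbound libraries. Its EdU level was below unbound in every library (difference -2.33, SE 0.179, adjusted p = 1.98e-11), and with DMSO its means were 27.5 and 30.1 RPM.

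Pla2g6 (a calcium-independent phospholipase A2, difference -2.40), Mroh1 (-2.36), Tbcd (a chaperone of tubulin folding, -2.33), Gtpbp1 (a GTP-binding protein, -2.32) and Sort1 (the sorting receptor sortilin, -2.31) followed. Hint2 (-2.26), Mia3 (which exports collagen from the endoplasmic reticulum, -2.23), Mxd4 (a partner of MAX that opposes MYC, -2.23) and Ahsa2 (-2.22) completed the 12. None of these 12 had overlapping fractions, by the rule that chose them. Sort1 was low in replicated chromatin with DRB as well, at 2.25 RPM in EdU and 12.4 RPM in unbound libraries, and averaged 9.38 and 15.2 RPM with DMSO.

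The coding genes at the other end were 12 with differences from 1.09 to 1.39. Shbg, the sex hormone-binding globulin of plasma, had 4.03, 4.97 and 3.99 RPM in EdU libraries, against 1.38, 1.26 and 0.540 RPM in unbound libraries. All EdU values lay above all unbound values (difference 1.39, SE 0.285, adjusted p = 1.53e-04). Gast, the hormone gastrin, had 8.35, 8.69 and 7.45 RPM in EdU libraries, against 2.30, 4.28 and 2.70 RPM in unbound libraries (difference 1.19, SE 0.223, adjusted p = 4.89e-05). The groups of these 12 genes were apart by the rule that chose them. At Gast, DMSO EdU and unbound libraries averaged 5.45 and 3.65 RPM. The others were Ssc4d (1.31), Avil (an actin-severing protein, 1.23), Fblim1 (a filamin-binding adaptor, 1.21), Sema4a (a semaphorin, 1.19), Olfr1513 (an odorant receptor, 1.18), Gstt4 (1.18), Ccr4 (a chemokine receptor, 1.13), Dennd1c (1.12), 1700001K19Rik (1.11) and Ifitm6 (1.09).

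The regions around the sites called higher were themselves richer in EdU reads. Within 250 kb of the TSSs called higher, background windows held a median of 1.54 times as much signal in EdU as in unbound libraries, against 1.05 times around TSSs called lower and 1.00 over all TSSs, and the ratio was 1.57 and 1.58 around enhancers and distal peaks called higher. When each site was scaled to its own surroundings, an alternative chosen after seeing the data, 109 of the 624 TSSs called higher and 8943 of the 10332 called lower kept their call, and none was called in the opposite direction. Of the 12 highest coding genes 3 stayed called, among them Gast (0.55, adjusted p = 0.0192) and Shbg (0.46, adjusted p = 0.0292), and 9 did not, with Avil at 0.42 (adjusted p = 0.104), Ssc4d at 0.32 (adjusted p = 0.153) and Fblim1 at 0.27 (adjusted p = 0.147). All 12 of the lowest stayed called, between -2.30 and -1.78. Among enhancers 1601 of 2218 lower and 18 of 244 higher calls were kept, and among distal peaks 8734 of 16717 and 220 of 5186.

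Replicated DNA gave more background reads than unbound DNA in gene-rich chromosome segments with triptolide. In 1 Mb bins with over 20 TSSs (445 of 2595 bins), the median background level relative to the genome mean was 2.04 ± 0.110 in EdU and 1.81 ± 0.0892 in unbound libraries (SD, n = 3 each), a median EdU over unbound ratio of 1.17. With DRB the levels in these bins were 1.40 and 1.57 (ratio 0.944), and with DMSO 1.44 and 1.61 (ratio 0.921). In the 72 bins without a TSS the ratio was 0.886 with triptolide, 1.14 with DRB and 1.09 with DMSO. In nascent triptolide chromatin the ratios were 1.02 in the gene-rich bins and 1.21 in bins without a TSS. These ratios were not tested, and whether they reflect which regions replicated during the pulse was not tested either.

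**Figure D4:**
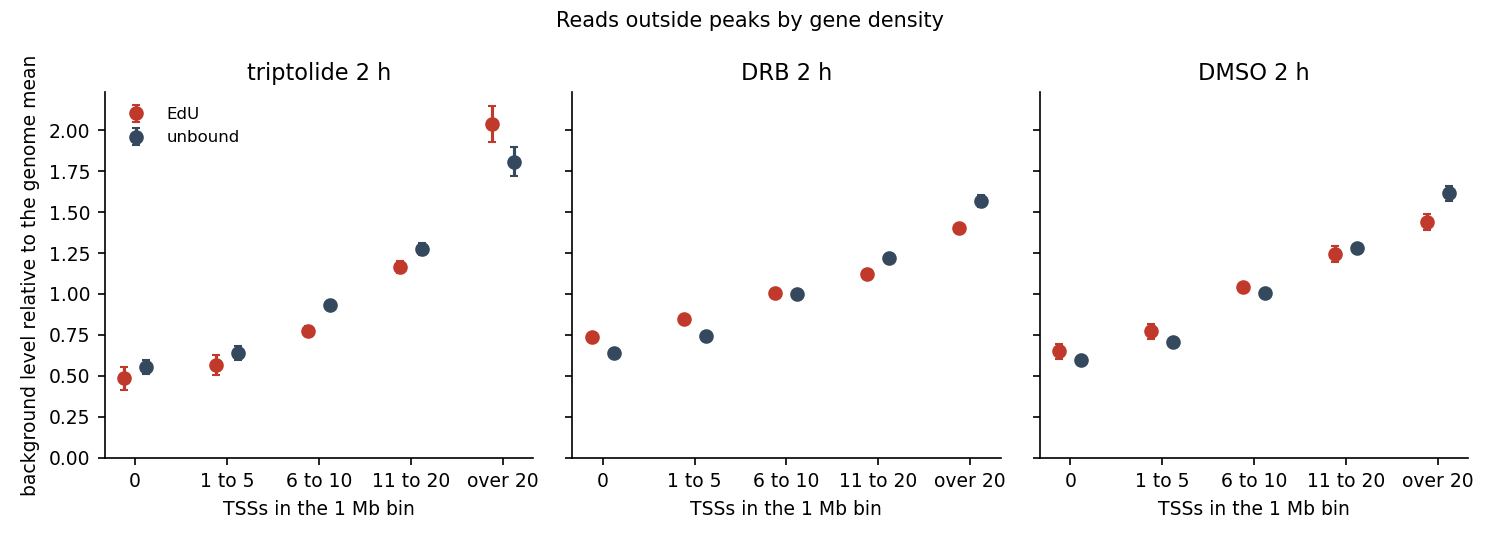
Median background level relative to the genome mean (y axis) in 1 Mb bins grouped by the number of TSSs they hold (x axis), for triptolide, DRB and DMSO 2 h after EdU. Points are means of 3 libraries with SD, EdU in red left of unbound in blue. In the bins with over 20 TSSs the EdU point lies above unbound with triptolide (2.04 and 1.81) and below it with DRB and DMSO.

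Gene lists were described by role, starting with the transcription machinery that the drugs target. P-TEFb and elongation factor genes had 20 of 26 tested members called lower (median -0.89), beside 39.1% of all genes (median -0.37) and 47.7% of coding genes (median -0.56), of which 0.98% were called higher. Examples were Hexim1 (the inhibitor of P-TEFb), at 1.73, 1.86 and 3.46 RPM in EdU and 8.17, 8.57 and 7.33 RPM in unbound libraries, and Mllt1 (a subunit of the super elongation complex, -1.28). Cdk9, the target of DRB, had 1.73, 2.17 and 2.39 RPM in EdU and 4.37, 5.04 and 4.17 RPM in unbound libraries (difference -0.84, adjusted p = 0.00114). Both Cdk9 and Hexim1 had EdU values below every unbound value. Of 10 TFIIH subunit genes 2 were called lower (median -0.43): Gtf2h2 (-0.91) and Ercc3, which encodes XPB, the target of triptolide, at 1.89 ± 0.444 RPM in EdU and 4.13 ± 0.451 RPM in unbound libraries (SD, n = 3 each, difference -0.84, adjusted p = 0.00426). Of 12 RNA polymerase II subunit genes 5 were called lower (median -0.59), among them Polr2l (-0.88) and Polr2h (-0.74). Polr2a, the largest subunit, was not called, at 2.52 ± 0.777 RPM in EdU and 3.97 ± 0.425 RPM in unbound libraries (difference -0.52, adjusted p = 0.0519), and was called lower when scaled to its surroundings (-0.66, adjusted p = 0.00443). Centred on the median TSS, Cdk9 (-0.45, adjusted p = 0.0916) and Ercc3 (-0.45, adjusted p = 0.133) were not called.

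Replication fork genes had 30 of 42 tested members called lower (median -0.79), led by Pold2 (a subunit of DNA polymerase delta, 0.783 RPM in EdU and 5.83 RPM in unbound libraries) and Asf1b (a histone chaperone, 5.49 and 19.6 RPM). Chromatin remodeller genes had 20 of 29 (median -0.73), with Brd9 at -1.63 and Mbd3, of the NuRD complex, at -1.48. Of all coding genes 47.7% were called lower (median -0.56). Numbered zinc finger genes, most of them sequence-specific repressors, had 216 of 315 called lower and 2 higher (median -0.84). Zfp444 stood at 4.61, 4.97 and 3.19 RPM in EdU and 20.8, 21.2 and 20.5 RPM in unbound libraries, a separation of the groups in every library (difference -2.07, adjusted p = 3.36e-11), and Zfp90 at -2.06. The 2 called higher were Zfp57, which protects imprinted methylation (1.00), and Zfp532 (0.76), and neither stayed called when scaled to its surroundings (both 0.27, adjusted p = 0.4 and 0.407).

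Replication-dependent histone genes are transcribed in S phase. Of 57 tested, 41 were called lower with triptolide (median -0.83), beside 47.7% of coding genes (median -0.56). With DRB 6 were called lower and 6 higher (median -0.03, beside 12.6% of all genes lower and 0.513% higher). The median member stood at 1.63 RPM in EdU and 3.95 RPM in unbound libraries with triptolide, at 8.96 and 9.17 RPM with DRB, and at 10.4 and 9.98 RPM with DMSO. H2ac15 and H2bc15, a divergent pair that shares 1 window, had 1.73, 1.24 and 0.798 RPM in EdU libraries, against 7.14, 8.57 and 7.33 RPM in unbound libraries (difference -1.96, adjusted p = 6.28e-09). The fractions were fully apart there, and DMSO means were 18.6 and 17.4 RPM. Reads cannot always be assigned to 1 of these very similar genes, and neighbouring members can share windows.

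Ribosomal protein genes had 38 of 78 called lower (48.7%) and 1 higher with triptolide (median -0.57), near the 47.7% lower of coding genes (median -0.56). With DRB 3 were called higher, beside 0.513% of all genes, and the median was -0.05. Rpl10 was at 0 in all 3 EdU libraries, against 2.53, 2.02 and 2.70 RPM in unbound libraries, which is at least 8.42-fold lower in EdU (floor of 3 reads over the 3 EdU libraries together, 0.287 RPM). Rpl35 stood at 2.62 and 8.74 RPM, and the member called higher was Rpl4, at 3.39 RPM in EdU and 1.39 RPM in unbound libraries, with 0.21 on local scaling (adjusted p = 0.448). Respiratory chain genes had 49 of 83 called lower (median -0.70), led by Uqcc1 (-1.64) and Uqcrc2 (-1.61), with Cox4i2 higher (0.94, and 0.29 on local scaling, adjusted p = 0.399). Proteasome genes had 20 of 39 (median -0.61; Psma5 -1.60, Psmc4 -1.43), splicing factor genes 19 of 31 (median -0.70; Sf3a1 -1.20, Hnrnpa2b1 -1.16), and heat shock and chaperone genes 13 of 23 (median -0.69; Cct7 -1.94, Dnajb1 -1.57). Housekeeping genes had 15 of 25 called lower (median -0.60), with Ywhab at -2.10 and Pgk1 at -1.94. Gapdh had 4.32, 6.21 and 4.25 RPM in EdU and 7.71, 10.3 and 10.9 RPM in unbound libraries (difference -0.85, adjusted p = 0.00168), with no overlap, and was not called when centred on the median TSS (-0.46, adjusted p = 0.0732).

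Immediate early genes had 18 of 29 called lower (median -0.73), beside 47.7% of coding genes (median -0.56), with Atf3 at -1.59 and Ccn2 at -1.42. Jun, a subunit of the factor AP-1, had 5.76, 3.41 and 4.79 RPM in EdU and 10.0, 8.07 and 10.4 RPM in unbound libraries (difference -0.91, adjusted p = 3.99e-04), and Fos averaged 2.76 and 5.16 RPM (-0.68, adjusted p = 0.0196). Scaled to their surroundings, Jun (-0.42, adjusted p = 0.143) and Fos (-0.37, adjusted p = 0.264) were not called, nor was Fos when centred (-0.29, adjusted p = 0.31). Targets of p53 had 1 of 26 called lower with DRB (median -0.08), beside 12.6% of all genes (median -0.19). With triptolide 18 of the 26 were called lower (median -0.63), with Ddb2 at -1.58 and Sesn1 at -1.54. Neither Cdkn1a, the p53-induced inhibitor of cyclin-dependent kinases, nor Mdm2, the ubiquitin ligase of p53, was called: Cdkn1a averaged 4.76 ± 1.66 and 3.22 ± 0.0566 RPM (difference 0.41, adjusted p = 0.147), and Mdm2 3.14 ± 0.566 and 4.26 ± 1.15 RPM (-0.33, adjusted p = 0.258). Hspa8, a constitutive chaperone, averaged 7.17 and 9.96 RPM and was not called either (-0.43, adjusted p = 0.0692). Hspa8 was called lower when scaled to its surroundings (-0.60, adjusted p = 0.026), and Cdkn1a was called higher when centred on the median TSS (0.80, adjusted p = 0.00592), with -0.19 on local scaling (adjusted p = 0.486).

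Pluripotency genes had 9 of 33 tested members called lower (median -0.31), beside 47.7% of coding genes (median -0.56), a difference that was not tested. Myc, a growth-promoting transcription factor, had 10.7, 10.2 and 13.3 RPM in EdU libraries, against 11.5, 12.6 and 12.3 RPM in unbound libraries. The fractions overlapped (difference -0.09, SE 0.173, adjusted p = 0.737). Sox2, a partner of Oct4 at stem cell enhancers, had 5.47, 4.97 and 6.91 RPM in EdU and 7.37, 6.05 and 6.94 RPM in unbound libraries (-0.21, SE 0.185, adjusted p = 0.436), and Nanog, a homeodomain factor of the stem cell state, 6.34, 4.97 and 8.78 RPM and 6.10, 5.04 and 5.94 RPM (0.17, SE 0.202, adjusted p = 0.564). Both overlapped between fractions. Pou5f1 (Oct4, -0.43, adjusted p = 0.174), Klf4 (-0.59, adjusted p = 0.075) and Zfp42 (-0.19, adjusted p = 0.536) were not called. Each of these 6 TSSs lay in surroundings with more EdU than unbound background, from 1.33 times at Klf4 to 1.77 times at Zfp42. Scaled to those surroundings, 5 of the 6 were called lower: Zfp42 at -0.73 (adjusted p = 0.00727), Myc at -0.68 (adjusted p = 0.00416), Klf4 at -0.64 (adjusted p = 0.0229), Pou5f1 at -0.63 (adjusted p = 0.02) and Sox2 at -0.51 (adjusted p = 0.0452). Nanog stood at -0.27 there (adjusted p = 0.391), and centred on the median TSS it was called higher (0.56, adjusted p = 0.0282). Members called lower included Utf1 (-1.40) and Trim28 (a co-repressor of retroelements, -1.06).

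Polycomb-bound developmental regulators had 27 of 64 called lower (42.2%, median -0.53), beside 47.7% of coding genes (median -0.56). Tbx2 stood at -1.39 and Sox7 at -1.38. Markers of cells the culture could hold besides stem cells were called lower in 4 of 11 for primitive endoderm (median -0.49; Col4a1 -1.49, with Hnf4a higher at 0.76, or 0.40 on local scaling, adjusted p = 0.0818), 1 of 7 for trophectoderm (Tead4, -0.95), 2 of 11 for fibroblasts (Twist2 -0.88, Vim -0.74) and 5 of 13 for neural and germ layer cells (Mixl1 -1.43, Sox1 -0.83). Gata6 averaged 3.52 ± 0.364 RPM in EdU and 4.47 ± 0.714 RPM in unbound libraries (-0.27, adjusted p = 0.417). Actb and Sox17 were not paired with a TSS used here. Open TSSs of these markers do not show that such cells were present. The median 2-cell-like marker stood at 0.00 RPM in EdU and 0.0514 RPM in unbound libraries.

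Olfactory receptor genes had 13 of 1001 called lower and 7 higher (median -0.04), beside 39.1% and 1.53% of all genes. Their median member stood at 0.00 RPM in EdU and 0.0898 RPM in unbound libraries. Of those called lower Olfr1349 (-0.88) and Olfr658 (-0.83) were lowest, and Olfr1513 (1.18) and Olfr221 (0.90) were the highest of those called higher, and on local scaling Olfr1513 stayed called (0.51, adjusted p = 0.0426) and Olfr221 did not (0.21, adjusted p = 0.315). Small nuclear and nucleolar RNA genes had 17 of 144 lower and 9 higher (median -0.04). Rnu3a, which encodes a U3 RNA for ribosomal RNA processing, had 1.63 ± 0.214 RPM in EdU and 6.86 ± 0.874 RPM in unbound libraries (SD, n = 3 each, difference -1.58, adjusted p = 8.75e-09), against 40.2 and 37.2 RPM with DMSO. Rmrp, the RNA of RNase MRP, was at -1.56, and Snora81 (1.10) and Snord38a (1.04) were called higher, though not on local scaling (0.63, adjusted p = 0.0674, and 0.30, adjusted p = 0.36).

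**Figure D5:**
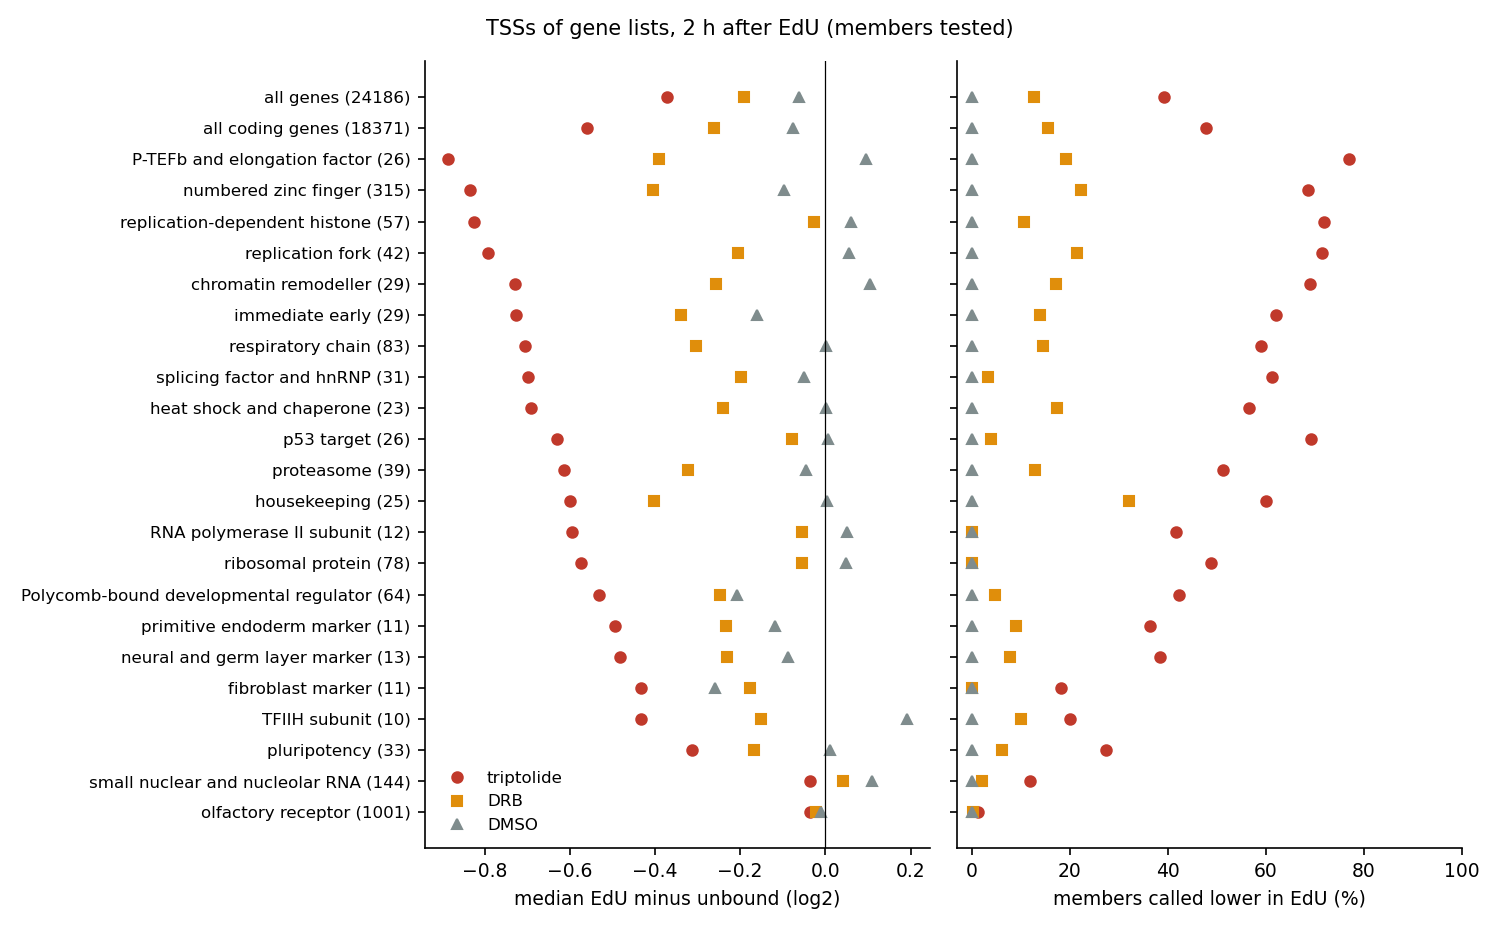
Median EdU minus unbound difference (log2(RPM + 1), left) and percent of tested members called lower in EdU (right) for gene lists, with the number tested in brackets. The 2-cell-like and trophectoderm lists, with 7 tested members each, are not drawn. Red circles are triptolide, orange squares DRB and grey triangles DMSO. Triptolide medians run from -0.89 for P-TEFb and elongation factor genes to -0.04 for olfactory receptor and small RNA genes. DRB medians are near 0 for the p53 target, ribosomal protein, histone, RNA polymerase II subunit, olfactory receptor and small RNA genes.

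The same was done for sites away from TSSs, where the rule again named only sites whose fractions did not overlap. The distal peak at chr8:69716501-69717500 had 1.73, 3.10 and 0.798 RPM in EdU libraries, against 16.3, 14.6 and 14.2 RPM in unbound libraries (difference -2.56, SE 0.195, adjusted p = 3.42e-15). The fractions were far apart, and DMSO means were 14.2 and 20.7 RPM. The enhancer centred in chr13:74399001-74400000 had 2.30, 6.21 and 3.72 RPM in EdU and 16, 16.4 and 22.0 RPM in unbound libraries (-1.97, SE 0.181, adjusted p = 5.59e-11), with 30.8 and 33.6 RPM with DMSO. Its EdU values also lay below every unbound value. The other 4 of the 5 lowest enhancers lay between -2.09 and -1.95, and the other 4 distal peaks between -2.23 and -2.10. At the upper end the enhancer at chr10:77096501-77097500 had 6.34, 6.52 and 6.91 RPM in EdU and 1.61, 2.27 and 1.47 RPM in unbound libraries (1.46, SE 0.251, adjusted p = 1.52e-05). The distal peak at chr5:108028501-108029500 had 7.78, 8.38 and 7.71 RPM and 1.96, 1.01 and 2.24 RPM (1.74, SE 0.262, adjusted p = 1.88e-06). Both lay in surroundings where background was 1.35 and 1.69 times as high in EdU. Scaled to those surroundings, all 5 lowest and 2 of the 5 highest stayed called in each class. The enhancer at chr10:77096501-77097500 was one of these (0.78, adjusted p = 0.00766), and the distal peak at chr5:108028501-108029500 was not (0.75, adjusted p = 0.0532).

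Set against DMSO, the gap between fractions was larger under triptolide at many TSSs. The difference of differences (triptolide minus DMSO) was called negative at 5346 TSSs (17.8%) and positive at 230 (0.764%), at 653 enhancers (7.44%) and 60 (0.683%), and at 1934 distal peaks (1.42%) and 804 (0.59%). Centring on the median TSS turned the distal split, with 21.3% negative against 70.6% on RPM, and gave 61.9% in place of 91.6% at enhancers and 81.1% in place of 95.9% at TSSs, and local scaling gave 98.0% at distal peaks. The most negative genes were Mroh1 (-2.32), Crtc2 (a coactivator of CREB, -2.27), Tbcd (-2.26), Get1 (-2.25) and Mxd1 (a partner of MAX, -2.22). Crtc2 averaged 2.36 RPM in EdU and 11.5 RPM in unbound libraries with triptolide, against 19.7 and 15.0 RPM with DMSO. Avil (1.87), Ccdc153 (1.67), Prx (1.66), Fblim1 (1.52) and Tbxa2r (1.499) were the most positive. With local scaling 4 of these 5 were not called: Prx (0.73, adjusted p = 0.143), Ccdc153 (0.60, adjusted p = 0.0747), Tbxa2r (0.46, adjusted p = 0.29) and Fblim1 (0.42, adjusted p = 0.139). Ccdc153, Tbxa2r and Fblim1 also lost the call at equal depth, while the 5 most negative genes kept theirs in both alternatives.

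The gap was also larger under triptolide than under DRB, at fewer sites. Triptolide minus DRB was called negative at 1167 TSSs (3.88%) and positive at 50 (0.166%), at 156 enhancers (1.78%) and 11 (0.125%), and at 70 distal peaks (0.0514%) and 11 (0.00807%). It shares the triptolide libraries with the comparison against DMSO. This count depended on the libraries, with 340 TSSs called negative without unbound library 1 and 578 without unbound library 3, and with 4 after all libraries were thinned to equal depth. Among gene lists, 22 of 57 replication-dependent histone genes (median -0.79) and 12 of 78 ribosomal protein genes (median -0.61) were called negative, beside 4.5% of all genes (median -0.21). The most negative were H2bc7 (-2.01), Rgs20 (a regulator of G protein signalling, -1.95), H3c6 (-1.83), Tatdn2 (-1.82) and H2ac7 (-1.79), of which H2bc7 and H2ac7 are a divergent pair with overlapping windows. H2bc7 averaged 1.27 RPM in EdU and 7.23 RPM in unbound libraries with triptolide, against 13.2 and 11.7 RPM with DRB. Erich4 (1.70), Slamf9 (1.52), Fblim1 (1.48), Trim10 (1.44) and Krt16 (1.39) were the most positive. None of these 10 genes was called at equal depth, where the 5 most negative lay between -2.07 and -1.52. Slamf9, Fblim1, Krt16 and Trim10 also lost the call with local scaling, with scaling to background windows, with the 12 libraries alone, over 36 libraries and without unbound library 1.

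The gap under triptolide was smaller at 2 h than in nascent chromatin at many sites. Both fractions differed between these times. At TSSs, EdU signal was 2.71 times background in nascent and 6.71 in 2 h libraries, while unbound signal was 19.9 and 13.2. At enhancers EdU signal was 2.81 and 8.84 times background, and unbound signal 21.5 and 13.6. How much each fraction contributes to the smaller gap was not tested. The difference at 2 h minus that in nascent chromatin was called positive at 7056 TSSs (23.4%) and negative at 263 (0.874%), at 3324 enhancers (37.9%) and 30 (0.342%), and at 18386 distal peaks (13.5%) and 52 (0.0382%). Its median was 0.37 at TSSs, 0.73 at enhancers and 0.50 at distal peaks. In nascent triptolide chromatin 15153 TSSs had been called lower (50.3%), with 5750 enhancers (65.5%) and 65181 distal peaks (47.8%). The most positive TSSs were Dcbld2 (2.85), Vgll3 (2.84), Stt3a (a catalytic subunit of oligosaccharyltransferase, 2.77), Cyld (a deubiquitinase, 2.74) and Arrdc4 (2.69). Vgll3 had 20.2, 18.3 and 21.8 RPM in EdU and 20.7, 20.7 and 25.8 RPM in unbound libraries at 2 h (-0.15, adjusted p = 0.541), against 3.08 and 30.3 RPM in nascent chromatin. Its fractions overlapped at 2 h, while those of Dcbld2 did not, at 16.4, 12.1 and 21.0 RPM and 24.4, 25 and 28.1 RPM. The most negative were F7 (-1.48), Agmat (-1.41), Gm5294 (-1.38), Aipl1 (-1.27) and Pck1 (-1.26), all with averages of at most 3.16 RPM in either fraction at 2 h. Gm5294 and Aipl1 were at 0 in all 3 EdU libraries at 2 h, at least 11-fold and at least 3.58-fold lower than unbound on the floor of 3 reads over these libraries together.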

How the data were processed

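ATAC-seq libraries of EdU-captured and unbound DNA were analysed from 1 table of 5451088 windows of 1000 bp in steps of 500 bp, in which the authors deposited log2(RPM + 1) values for 36 libraries. Per the submitters' processing notes, Trim Galore 0.4.2 and Bowtie2 2.2.6.2 were used with mm10. No source used here names a peak caller, and the deposited peak and site lists give positions only. The members, gene lists and tests were chosen with earlier results of these data known.

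RPM was recovered from the deposited log2 values, and in all 36 libraries the values were whole multiples of 1 read within 0.1 read (100% of values). Library depth was 3.22 M to 13.0 M reads over windows in the 6 libraries, and the precision of a site follows from its reads. Sites with a value above 0 in at least 3 libraries were tested. Differences between EdU and unbound were tested with limma 3.58.1 (trended variance, R 4.3.3) on log2(RPM + 1), pseudocount 1, over the 18 libraries taken at 2 h with a shared spread, and the comparison with nascent chromatin used 36 libraries. P-values were adjusted by the Benjamini-Hochberg method over all sites of a class, at a threshold of 0.05. Single values per library were compared with a two-sided exact permutation test (scipy 1.17.1). Tables were made with Python 3.11.15, numpy 2.4.6 and pandas 2.3.3, and figures with matplotlib 3.10.9. The fit was tested on simulated data.

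A gene was paired with a TSS within 1000 bp of its annotated start, and 1099 TSSs had several genes in reach. Background windows were 20000 drawn from 3992109 windows that lay over 1000 bp from every listed peak and held a read in some library. TSSs and enhancers outside the listed peaks were not left out of them. Local background was the mean of background windows within 250 kb, and 1 Mb bins needed at least 400 of them. The coding genes named are the 12 lowest and 12 highest called TSSs whose libraries do not overlap and whose higher group averages at least 2 RPM. From each gene list the 2 with the largest called difference in each direction are named, with 18 fixed genes, 5 enhancers and 5 distal peaks in each direction, and 5 genes in each direction for each difference of differences. Enhancers were not split into clustered and single ones, since none lie within 12500 bp of another. Alternatives were other pseudocounts, scalings, filters, library sets, depths, a replicate block, limma-voom on the recovered reads, and each library left out.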

Additional observations from a re-analysis of the deposited data

Results flagged for a closer look

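The difference between EdU and unbound chromatin under triptolide differed from the same difference under another condition in the counts and genes given here, by a limma interaction term. Groups of 3 libraries are too small for a check of single libraries. Against DMSO it was more negative at 5346 TSSs, 653 enhancers and 1934 distal peaks, and more positive at 230, 60 and 804. Against DRB, with the same triptolide libraries, it was more negative at 1167 TSSs, 156 enhancers and 70 distal peaks, and more positive at 50, 11 and 11. At 2 h against nascent chromatin it was more positive at 7056 TSSs, 3324 enhancers and 18386 distal peaks, and more negative at 263, 30 and 52.

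Against DMSO the genes at the ends, on the log2(RPM + 1) scale, were Mroh1 (-2.315), Crtc2 (-2.27), Tbcd (-2.259), Get1 (-2.248) and Mxd1 (-2.223), and Tbxa2r (1.499), Fblim1 (1.517), Prx (1.659), Ccdc153 (1.667) and Avil (1.874). Against DRB they were H2bc7 (-2.014), Rgs20 (-1.953), H3c6 (-1.831), Tatdn2 (-1.823) and H2ac7 (-1.789), and Krt16 (1.387), Trim10 (1.442), Fblim1 (1.484), Slamf9 (1.518) and Erich4 (1.701). At 2 h against nascent chromatin they were F7 (-1.477), Agmat (-1.411), Gm5294 (-1.38), Aipl1 (-1.266) and Pck1 (-1.264), and Arrdc4 (2.69), Cyld (2.74), Stt3a (2.768), Vgll3 (2.845) and Dcbld2 (2.846).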

How the results depend on the processing

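Counts are sites called lower (called higher for 2 h against nascent), and the causes of the changes were not tested. The gap under triptolide kept its direction at all 120 called sites named, in all 2273 alternative values, of which 122 no longer passed the threshold. At the 16 named sites that were not called, 31 of 302 alternative values passed it. Centring on the median TSS gave 5533 TSSs, 782 enhancers and 4471 distal peaks and turned the class medians to 0.112, 0.090 and 0.217, that of triptolide minus DMSO at distal peaks to 0.133 and that of triptolide minus DRB there to 0.0019. Thinning to equal depth gave 7029 TSSs, 1332 enhancers and 7098 distal peaks. It kept 6804 of the 10332 TSSs called lower and 220 of the 624 called higher. Local scaling gave 9903 distal peaks. Leaving out a library gave 8767 to 9765 TSSs, 1636 to 2231 enhancers and 10522 to 14305 distal peaks (10522 without unbound 1, 10796 without unbound 3). TSS signal over background in EdU was 0.576 of unbound by the class median and 0.538 over 3 windows, and 0.494 to 0.522 without 1 library (enhancers 0.629 to 0.682, distal peaks 0.775 to 0.820). The EdU excess of reads outside peaks was 3.63 points with a 1000 bp margin, and 6.47 to 7.58 without 1 library, and the chromosome X difference -0.164 to -0.0667.

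For triptolide minus DMSO, TSSs numbered 2749 centred and 2378 thinned, and 4075 to 5271 without 1 library. Enhancers numbered 390 at pseudocount 4, 203 centred, 399 scaled to background, 211 over 36 libraries and 215 thinned, and 366 (without unbound 1) to 846. Distal peaks numbered 1235, 836, 970, 501 and 527 in the same order, with 2987 over 3 windows, 3678 with the replicate block and 592 locally scaled, and 856 (without unbound 1), 1103 (unbound 2), 1058 (unbound 3) and up to 2312 without 1 library.

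For triptolide minus DRB, TSSs numbered 270 at pseudocount 4, 572 centred, 178 scaled to background, 282 with the 12 libraries alone, 193 over 36 libraries, 766 by limma-voom, 4 thinned and 1807 with the replicate block, and 340 to 1266 without 1 library. Enhancers numbered 274 at pseudocount 0.25, 39 at 4, 235 at a mean of at least 1 RPM, then 54, 22, 45, 3, 54, 34 and 417 in the order of the TSSs from centring on, with 64 locally scaled, and 48 (without unbound 1), 68 (unbound 2), 94 (unbound 3) and 388 (EdU 1) without 1 library. Distal peaks numbered 119 at 0.25, 2 at 4, then 23, 1, 7, 1, 22, 26 and 764, with 0 locally scaled, and 8 to 230 (EdU 1) without 1 library. The difference of 2 h and nascent, scaled to background, gave 12587 TSSs, 5088 enhancers and 57836 distal peaks, and without 1 library 5495 to 6645, 2947 to 3349 and 12887 to 16890.

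Same-numbered EdU and unbound libraries under triptolide deviated together with correlations of 0.041, 0.059 and 0.076, while all differently numbered ones had negative correlations. Each library correlated best with its own number, with DRB and DMSO too. Same-numbered libraries may be fractions of the same capture, and the main fit does not pair them. With the replicate block, which pairs them, the gap was called lower at 10695 TSSs, 2470 enhancers and 19602 distal peaks. Triptolide minus DRB was then called lower at 1807 TSSs in place of 1167, and at 764 distal peaks in place of 70. Depth limits the EdU libraries most, and sites of low RPM cannot show a small difference.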
